A study of Saccharomyces cerevisiae with 3 samples.

Results

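The left end of chromosome VI of the yeast Saccharomyces cerevisiae holds a stretch of genes for nutrient uptake and vitamin synthesis, running from the magnesium transporter gene ALR2 (YFL050C) outwards to the cyanamide hydratase gene DDI2 (YFL061W). The 10 members described here are the array entries YFL050C to YFL061W, without the aryl-alcohol dehydrogenase entries YFL056C and YFL057C that lie among them. They are 10 of 6178 open reading frames (ORFs) in the table, and all 10 had a value in every sample. The stretch was picked because earlier results of these data showed ORFs of it with low ratios of the hybrid over parent Sc1. Each estimate below draws on all 3 samples, so the ratios of the members are a description and carry no test.

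Genomic DNA of 3 strains was compared by array comparative genomic hybridisation, in which the DNA of a pair of strains is labelled with different dyes and hybridised to the same ORF probes. The strains were R2 IVo, an artificial intraspecific hybrid, and its parents, Sc1 (parental strain 1) and Sc2 (parental strain 2). The series title concerns hybrids selected for fermentation and mannoprotein release, and the labels describe industrial cultivation and drying. There were 3 samples, 1 for each pairing (hybrid over Sc1, hybrid over Sc2, Sc1 over Sc2), hybridised per the labels to duplicate arrays with exchanged dyes and combined by the authors into 1 log ratio per ORF. No separate cultures are named, and the duplicate arrays were already combined. Every error given here comes from how far the 3 log ratios of an ORF fail to add up around the strains, moderated over all ORFs. It measures neither the spread among cultures nor that among duplicate arrays. The values were read as log2 ratios with the first-named strain as numerator. Titles and channel order make that direction likely, and if it were the opposite, every sign below would turn. Fewer copies of a gene, a sequence that differs from the probe and the loss of similar copies elsewhere all lower a ratio, and they cannot be told apart here.

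As background, the ends of yeast chromosomes carry gene families that are often gained, lost or exchanged between strains. DAK2 encodes dihydroxyacetone kinase, AQY3 a channel protein related to glycerol facilitators, AGP3 an amino acid permease, and ZNF1 a zinc cluster regulator of respiratory growth. SNZ3 and SNO3 encode the subunits of an enzyme that makes pyridoxal phosphate (vitamin B6), and THI5 an enzyme that makes the pyrimidine part of thiamine (vitamin B1). The table of RefSeq gene names used here (assembly R64) calls YFL061W DDI3 and its copy YNL335W on chromosome XIV DDI2. The name DDI2 is kept below for YFL061W, and the copy is called YNL335W.

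The members from ALR2 to DDI2 did not all share a pattern of ratios. ZNF1, DAK2, AQY3 and AGP3, which are neighbours, had the same pattern: low in the hybrid over Sc1, high in Sc1 over Sc2, and above 0 by a smaller amount in the hybrid over Sc2 (0.060 to 0.224). SNZ3, SNO3 and DDI2, nearer the chromosome end, were also low in the hybrid over Sc1 and high in Sc1 over Sc2, at smaller size. They were just below 0 in the hybrid over Sc2. That sign turned for ZNF1, AGP3, SNZ3 and SNO3 when the value was taken through Sc1. The hybrid over Sc2 therefore does not set these runs of genes apart. For ALR2 and THI5 the ratio of Sc1 over Sc2 was near 0, and YFL051C lay in between. THI5 has copies elsewhere whose probes could share signal with it, so its ratio cannot show whether the stretch is broken there. The stretch is therefore described by its genes.

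ZNF1 (YFL052W) had deposited log2 ratios of −0.944 for the hybrid over Sc1, 0.089 for the hybrid over Sc2 and 0.875 for Sc1 over Sc2. With each sample centred on its median, the hybrid gave 52.2% of the signal of Sc1, and Sc1 gave 182% of that of Sc2. AGP3 (YFL055W) had deposited ratios of −0.886, 0.135 and 0.796 in the same order. ZNF1 had the 6th lowest and AGP3 the 9th lowest of 6123 values in the hybrid over Sc1 sample. The regulator gene and the permease gene are thus at opposite ends of the 4-gene run and had its lowest ratios against Sc1.

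Between them, DAK2 (YFL053W) had deposited log2 ratios of −0.658, 0.224 and 0.869. AQY3 (YFL054C) had −0.556, 0.060 and 0.722. Over the 4 genes the hybrid gave 52.2% to 68.3% of the signal of Sc1 and 104% to 116% of that of Sc2, and Sc1 gave 163% to 182% of that of Sc2. All 4 were among the 20 highest of 6123 values in Sc1 over Sc2, from 14th (ZNF1) to 20th (AQY3).

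**Figure D1:**
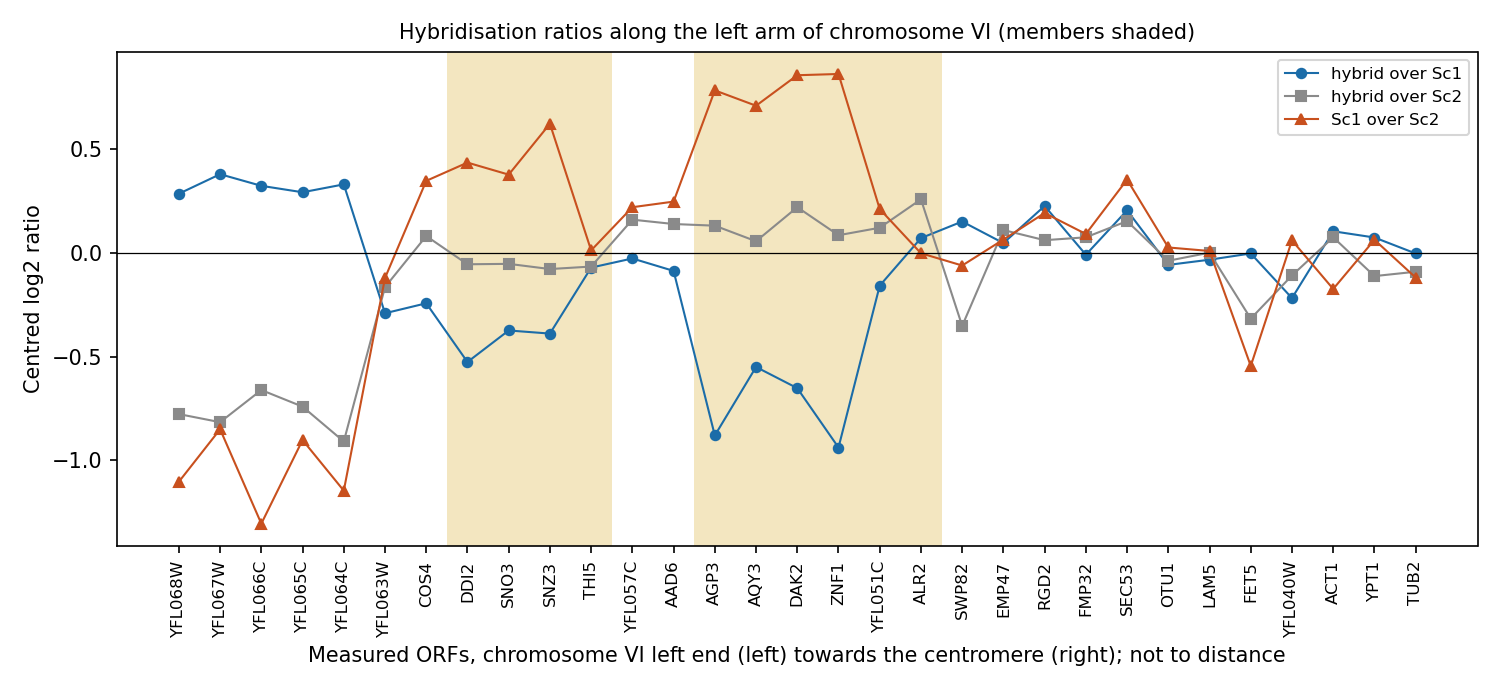
Centred log2 ratios (y axis) of the measured ORFs from the left end of chromosome VI (left) towards the centromere (right), 1 point per ORF and sample, with the 10 members shaded. The lines of Sc1 over Sc2 and of hybrid over Sc1 are apart from COS4 (YFL062W) to SNZ3 and meet near 0 at THI5. They part by a smaller amount at YFL057C and AAD6 (YFL056C) and further from AGP3 to ZNF1. They are nearer again at YFL051C and come together at ALR2.

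Of the vitamin B6 genes, SNZ3 (YFL059W) had deposited log2 ratios of −0.395, −0.074 and 0.635, again in the order of samples used for ZNF1. SNO3 (YFL060C) had −0.380, −0.049 and 0.390. DDI2 (YFL061W), whose product breaks down cyanamide, had −0.532, −0.051 and 0.448. In these 3 genes the hybrid gave 69.4% to 77.2% of the signal of Sc1 and 94.7% to 96.4% of that of Sc2. Their neighbour THI5 (YFL058W) did not share the pattern, with −0.077, −0.062 and 0.025.

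At the centromere side, ALR2 (YFL050C) had 0.065, 0.262 and 0.011. The value of ALR2 over Sc2 was the 94th highest of 6123 in that sample, while its path through Sc1 gave 0.069. YFL051C, an ORF with similarity to flocculin genes, had −0.164, 0.125 and 0.224. Its signs were those of ZNF1, at a smaller size in the hybrid over Sc1 and in Sc1 over Sc2 but not in the hybrid over Sc2.

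Estimates that combine each direct sample with the path through the third strain (limma, 6123 ORFs) put the members in the same order as the deposited values for the hybrid over Sc1. There they were −0.88 ± 0.068 (SE) for ZNF1, −0.80 ± 0.075 for AGP3, −0.65 ± 0.061 for DAK2 and −0.58 ± 0.064 for AQY3. Those of DDI2, SNZ3 and SNO3 were −0.51 ± 0.062, −0.49 ± 0.085 and −0.39 ± 0.062, and YFL051C, THI5 and ALR2 followed at −0.14 ± 0.063, −0.073 ± 0.061 and 0.13 ± 0.071. Of the 9 steps between neighbours in this order, 2 were beyond 2 SE of the difference, the one from SNO3 to YFL051C and the one from THI5 to ALR2. No adjacent pair among the 7 lowest members was separated. The order came from the same estimates, which keeps adjacent steps small, and members further apart in it were not compared this way. The median of the 10 members was −0.50, against 0.0027 over all ORFs.

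The threshold for a call was a limma p below 0.05 after Benjamini-Hochberg adjustment over 6123 ORFs. In simulated data the share of false calls came out above that nominal level, a limit on every call given here. For the hybrid over Sc1, 5 of the 10 members were called lower in the hybrid (ZNF1, DAK2, AQY3, AGP3 and DDI2), where 0.343% of all ORFs were called lower. The members were chosen on this comparison, so nothing is read from that count. With the prior degrees of freedom of the variance set to 4, the calls of AQY3 and DDI2 ended and 3 members were called.

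Between the parents, the highest estimates were those of ZNF1 at 0.92 ± 0.068, DAK2 at 0.86 ± 0.061, AGP3 at 0.86 ± 0.075 and AQY3 at 0.67 ± 0.064. SNZ3, DDI2 and SNO3 followed at 0.52 ± 0.085, 0.45 ± 0.062 and 0.36 ± 0.062, and YFL051C, ALR2 and THI5 at 0.23 ± 0.063, 0.061 ± 0.071 and 0.0097 ± 0.061. None of the 9 steps between neighbours in this order was beyond 2 SE of the difference. The estimates still ran from 0.0097 to 0.92. Members further apart were not compared this way, so the small steps do not show that the members are alike. The median of the members was 0.48 in Sc1 over Sc2, against 0.0020 over all ORFs. In this comparison 6 members were called higher in Sc1, the 5 named above and SNZ3, where 0.523% of all ORFs were called higher. The comparison enters the estimates that chose the members, so this count too is a description. The call of SNZ3 (limma adjusted p = 0.039) ended without centring (adjusted p = 0.080), with centring on the mode (0.061) and with 4 prior degrees of freedom (0.11).

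**Figure D2:**
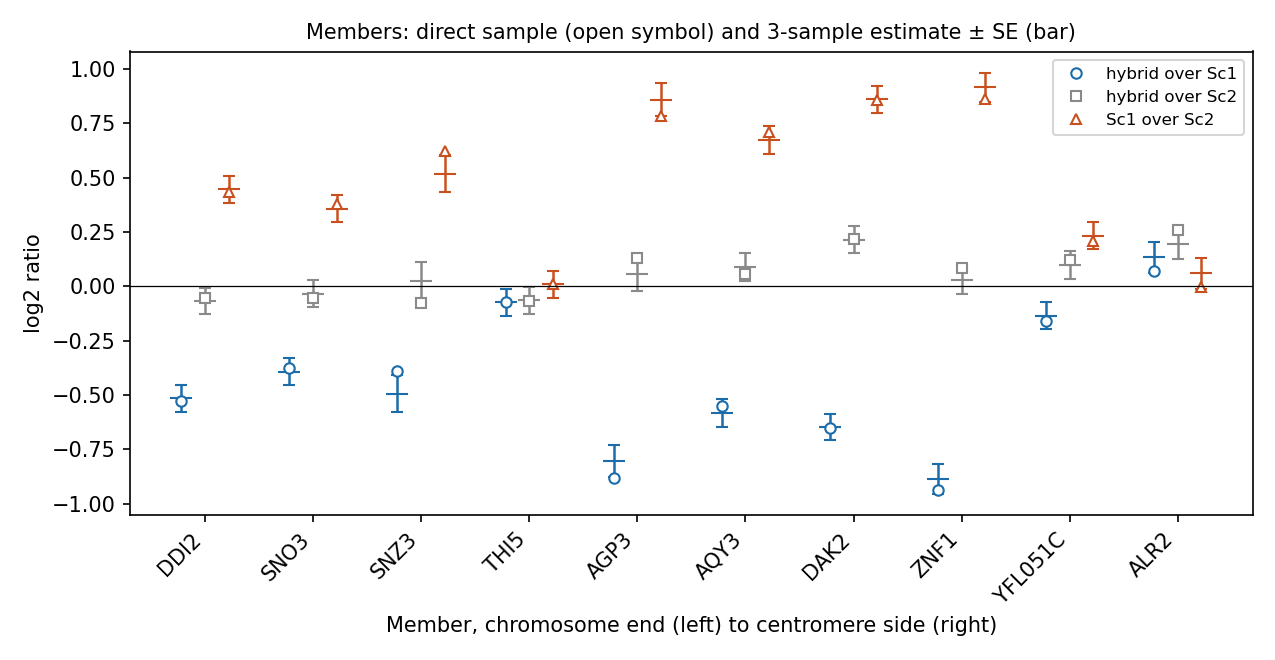
Log2 ratios (y axis) of the 10 members from the chromosome end (left) to the centromere side (right). Open symbols are the direct sample, and bars are the estimate from 3 samples with its SE. From AGP3 to ZNF1 the Sc1 over Sc2 estimates lie between 0.67 and 0.92 and the hybrid over Sc1 estimates between −0.88 and −0.58.

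Against Sc2, 0 of the 10 members were called in the hybrid by limma in any direction, where 0.915% of all ORFs were called. Of the members, 2 (DAK2 and ALR2) had an unadjusted limma p below 0.05, as did 7.95% of all ORFs. The estimates ran from −0.067 (DDI2) to 0.21 (DAK2), with a median of 0.043. The lack of a call does not show equal levels. For ZNF1 the 95% interval of the estimate was −0.13 to 0.20, which is 91.1% to 115% of the signal of Sc2. For AGP3 the interval was −0.13 to 0.24, for SNZ3 −0.18 to 0.23 and for DDI2 −0.22 to 0.082. The intervals of DAK2, 0.066 to 0.36, and ALR2, 0.024 to 0.37, lay above 0 before adjustment over ORFs. Those of ZNF1, AQY3, AGP3, SNZ3, SNO3 and DDI2 held 0.

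Where the hybrid stood relative to its parents was worked out from its own 2 samples, on the log scale, with 1 as the level of Sc1 and 0 as that of Sc2. It was 0.083 for ZNF1, 0.092 for AQY3, 0.13 for AGP3 and 0.25 for DAK2. For SNZ3, SNO3 and DDI2 it was −0.25, −0.17 and −0.12, on the far side of Sc2. For SNZ3, SNO3, ZNF1 and AGP3 the side of Sc2 turned with the path. Their hybrid over Sc2 values in the direct sample after centring were −0.078, −0.053, 0.085 and 0.131. Through Sc1 they were 0.23, 0.003, −0.076 and −0.097. By the hybrid's own 2 samples, all 7 genes were nearer to Sc2 than to Sc1. These values rest on 1 value per sample and have no error.

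**Figure D3:**
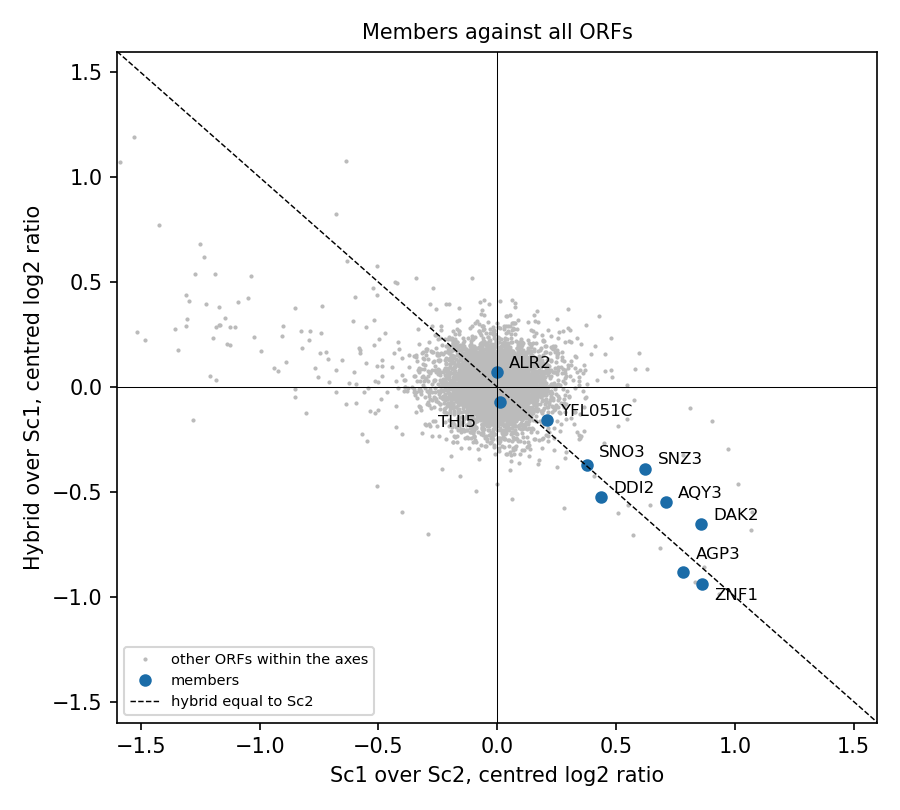
Centred log2 ratio of the hybrid over Sc1 (y axis) against Sc1 over Sc2 (x axis), 1 point per ORF, with the 10 members in blue. ORFs beyond the axes are not drawn. On the dashed line the hybrid equals Sc2. ZNF1, AGP3, DAK2, AQY3, SNZ3, DDI2 and SNO3 lie at the lower right near that line, while ALR2 and THI5 lie among the mass of ORFs.

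The samples can be checked against each other, because the log ratios of hybrid over Sc1 and of Sc1 over Sc2 should add up to that of hybrid over Sc2. Departures from this sum ran from −0.23 (AGP3) to 0.31 (SNZ3) over the members, against an SD of 0.19 over all ORFs. The departure was −0.016 for DAK2, −0.036 for DDI2, 0.10 for AQY3 and −0.16 for ZNF1. SNZ3 and AGP3 were the 2 members over 0.2 in size. For SNZ3 the direct ratio of Sc1 over Sc2 was 0.62 after centring and the indirect one 0.31, and for the hybrid over Sc1 they were −0.39 and −0.70.

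The entries that lie among the members had small ratios in the hybrid over Sc1. AAD6 (YFL056C) had deposited log2 ratios of −0.093, 0.143 and 0.260, and YFL057C had −0.033, 0.164 and 0.233. Neither was called in any comparison (limma). Before adjustment over ORFs, their 95% intervals for Sc1 over Sc2 lay above 0, at 0.092 to 0.39 (AAD6) and 0.060 to 0.36 (YFL057C). So did that of YFL057C for the hybrid over Sc2, at 0.022 to 0.32. Together with THI5, AAD6 and YFL057C make up 3 adjacent array entries between AGP3 and SNZ3. In these the hybrid over Sc1 stayed between −0.093 and −0.033. All 3 have related genes elsewhere, and whether shared signal brought these ratios nearer 0 was not tested.

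Immediately outside the stretch, COS4 (YFL062W), a gene of a subtelomeric membrane protein family, had deposited ratios of −0.249, 0.085 and 0.360, the signs of ZNF1, and was not called (limma adjusted p = 0.061 for Sc1 over Sc2). YFL063W had −0.297, −0.161 and −0.108. From YFL064C to the chromosome end the signs turned: YFL064C was at −1.18 ± 0.064 for Sc1 over Sc2 (limma adjusted p = 2.53e-04) and at −0.88 ± 0.064 for the hybrid over Sc2 (limma adjusted p = 0.00310). Its Sc1 over Sc2 value is one whose decimal point was restored. YFL065C and YFL066C were at −0.95 ± 0.066 and −1.20 ± 0.086 for Sc1 over Sc2, the latter also from a restored cell.

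On the centromere side, SWP82 (YFL049W), a subunit of the chromatin remodeller SWI/SNF, had 0.145, −0.348 and −0.048, which departed from the sum by 0.44. EMP47, RGD2, FMP32 and SEC53, the next ORFs inwards, had estimates of −0.011 to 0.11 for the hybrid over Sc1 and were not called in any comparison (limma). Over the 49 measured ORFs from YFL049W to YFL001W the hybrid over Sc1 ran from −0.22 to 0.18 with a median of −0.0090. Of these, limma called 0, where 0.67% of all ORFs were called. An unadjusted limma p below 0.05 was found for 5 of the 49, and for 7.99% of all ORFs. In Sc1 over Sc2, 3 of the 49 were called, where 1.98% of all ORFs were called in either direction. All 3 were lower in Sc1 and so opposite in sign to the members: FET5 at −0.47, BST1 at −0.55 and EPL1 at −0.50 (named after their values were seen). They departed from the sum by −0.23, 0.16 and −0.15.

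Several members have close copies elsewhere, whose probes could share signal with them. SNZ3, SNO3, DDI2 and THI5 belong to gene groups that are repeated near other chromosome ends, and their copies on chromosome XIV follow the same order by systematic name, from THI12 (YNL332W) to YNL335W. SNZ2 (YNL333W) had deposited log2 ratios of −0.389, −0.163 and 0.265, SNO2 (YNL334C) had −0.345, 0.021 and 0.299, and YNL335W had −0.584, 0.032 and 0.293. In Sc1 over Sc2 and in hybrid over Sc1 their signs were those of the chromosome VI members. None of the 3 copies was called (limma adjusted p = 0.068, 0.18 and 0.14 for the hybrid over Sc1). Whether the signal came from chromosome VI, from chromosome XIV or from both cannot be told apart for near-identical sequences.

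**Figure D4:**
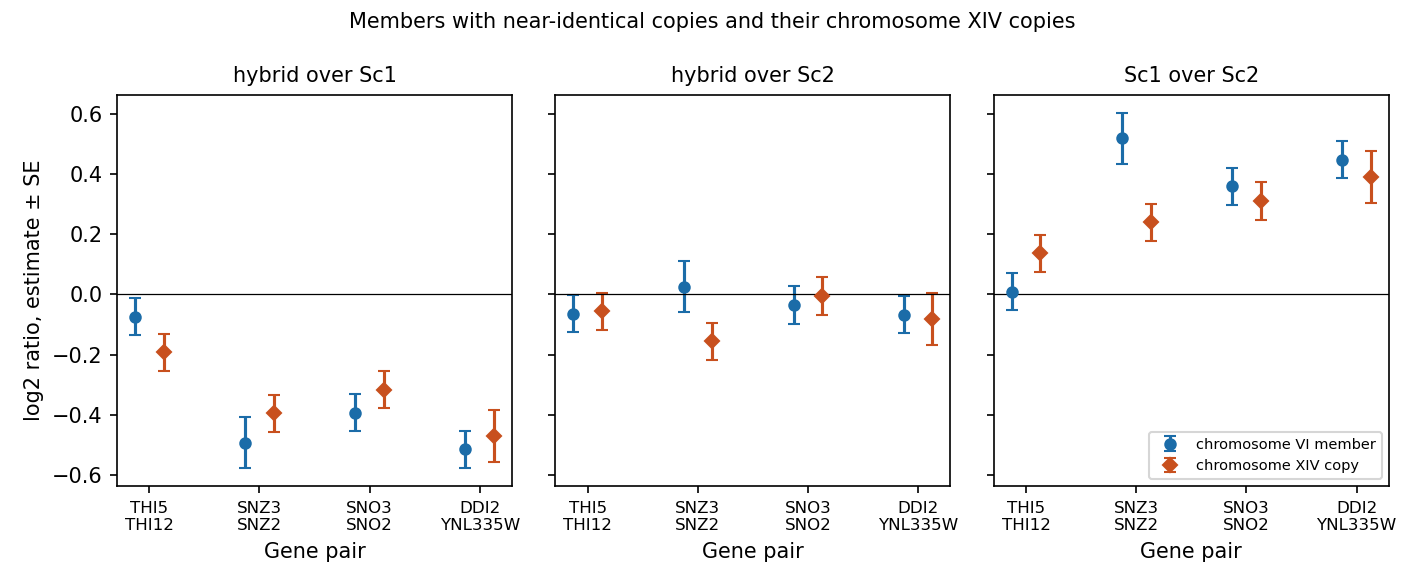
Estimates ± SE of the log2 ratio (y axis) for THI5, SNZ3, SNO3 and DDI2 on chromosome VI (circles) and their copies on chromosome XIV (diamonds), 1 panel per comparison. In the hybrid over Sc1 the pairs SNZ3 and SNZ2, SNO3 and SNO2, and DDI2 and YNL335W lie between −0.51 and −0.32, and THI5 and THI12 lie nearer 0.

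The thiamine genes THI11, THI12 and THI13, copies of THI5, had estimates of −0.069, −0.19 and −0.046 for the hybrid over Sc1, and were not called. The more distant paralogues SNZ1 and SNO1 had −0.093 ± 0.064 and 0.063 ± 0.12, without calls. On chromosome XIV, by systematic name, COS1 (YNL336W) is next to YNL335W, while AAD14 (YNL331C) lies between THI12 and RPD3 (YNL330C). COS1 and RPD3, added after their values were seen, had deposited ratios of Sc1 over Sc2 of 0.559 and −0.128. That of AAD14 was −0.050. COS1 departed from the sum by 0.35.

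None of the paralogues of DAK2, AQY3, AGP3 and ALR2 was called in any comparison (limma). DAK1, the main dihydroxyacetone kinase gene, was at 0.070 ± 0.066 for the hybrid over Sc1 and −0.038 ± 0.066 for Sc1 over Sc2, where DAK2 was at −0.65 and 0.86. FPS1, the glycerol channel gene, was at −0.12 ± 0.067 and 0.012 ± 0.067, and the amino acid permease genes AGP1 and AGP2 were at 0.092 and −0.0097 for the hybrid over Sc1 and at −0.17 ± 0.063 and 0.021 ± 0.062 for Sc1 over Sc2. ALR1, the partner of ALR2, was at 0.030 and 0.0060. MNR2, a vacuolar magnesium transporter gene, had −0.503 in the hybrid over Sc1 sample alone and departed from the sum by −0.59.

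ZNF1 resembles the activators of the maltose genes, and 1 of these, MAL13 on chromosome VII, was at −3.54 ± 0.13 for the hybrid over Sc1 (limma adjusted p = 1.71e-04) and 2.81 ± 0.13 for Sc1 over Sc2 (limma adjusted p = 2.07e-04). MAL13 departed from the sum by −0.64, and its hybrid over Sc1 value is one whose decimal point was restored. MAL33 and YPR196W of the same family were at −0.070 and 0.023 for the hybrid over Sc1 and were not called. Shared signal between the ZNF1 and MAL13 probes was not tested. Of the flocculin genes set beside YFL051C, FLO1 was called lower in Sc1 (−0.48 ± 0.074, limma adjusted p = 0.032), and FLO5, FLO9 and FLO10 were not called. Over the 26 partner genes, which include those of the aryl-alcohol dehydrogenases, 1 was called lower in the hybrid than in Sc1 (MAL13). Another was called higher in the hybrid than in Sc2 (AAD15), and 1 in each direction between the parents (MAL13 and FLO1). Over all ORFs, 0.343% were called lower in the hybrid than in Sc1. In either direction, 0.915% were called in the hybrid over Sc2 and 1.98% in Sc1 over Sc2.

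No listed gene that works beside the members was called. With so few ORFs called over the whole table, that absence is not read as a result about these genes. The lists held 17 genes of thiamine and vitamin B6 synthesis and uptake, 10 of glycerol and dihydroxyacetone use, 5 of magnesium transport, 5 regulators of respiratory growth and 19 amino acid permeases, 56 in all without the members. In each comparison limma called 0 of the 56, where 0.67% of all ORFs were called in hybrid over Sc1, 0.915% in hybrid over Sc2 and 1.98% in Sc1 over Sc2. An unadjusted p below 0.05 was found for 4 genes (7.14%) in hybrid over Sc1, 5 (8.93%) in hybrid over Sc2 and 7 (12.5%) in Sc1 over Sc2, and for 7.99%, 7.95% and 9.57% of all ORFs. Their lowest estimate for the hybrid over Sc1 was that of SNZ2 (−0.40), and the highest for Sc1 over Sc2 that of SNO2 (0.31). Both are close copies of members, and their probes could share signal with them. The lists also hold the copies of THI5. The amino acid permease genes other than AGP3 lay between −0.13 (TAT1) and 0.13 (HIP1) for the hybrid over Sc1.

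The ORFs outside the stretch with ratios most like its median (−0.46, 0.071 and 0.53 after centring) were found by Euclidean distance over the 3 samples. They were the isomaltase gene IMA1 at a distance of 0.13, the kinetochore gene CTF3 at 0.20, COS12 at 0.20, the hexose transporter gene HXT16 at 0.21 and the siderophore transporter gene ARN1 at 0.21. IMA1 had deposited ratios of −0.567, −0.006 and 0.565. The measure rests on 3 values that share strains. Across the table, 13 ORFs had at most −0.5 in the hybrid over Sc1, at least 0.5 in Sc1 over Sc2 and less than 0.3 in size in the hybrid over Sc2. ZNF1, DAK2, AQY3 and AGP3 were 4 of these 13, and the limits were set after the values were seen.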

How the data were processed

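The authors deposited 1 log ratio (a score with no stated unit) per ORF and sample. Hinf I cut the DNA, which was labelled with Cy3 or Cy5 for duplicate dye-swapped arrays, per the labels. For the scanner, background correction, normalisation, averaging rule and genome build, nothing is stated in the sources used here, so signal over background is unknown, coordinates are left out, and precision is limited by the few arrays. Base 2 was assumed for the logarithm. Whole-number cells of at least 1000 in size (76 cells in 57 ORFs, none in a member) were divided by 1000, while no other cell exceeded 2.88. Of 6180 entries, 2 controls and 55 ORFs with a missing value were left out, leaving 6123. Of 6178 ORFs, 5674 matched a RefSeq locus tag (R64), used for names only.

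Each sample was centred on its median (−0.006, 0.004 and 0.013). The 3 samples were fitted as the sides of a triangle of strains with limma 3.58.1 (lmFit, eBayes) in R 4.3.3, with 1 residual degree of freedom and 5.30 prior degrees of freedom, Benjamini-Hochberg adjustment over 6123 ORFs and a threshold of 0.05. Tested on simulated data, the fit made false calls at a share above the nominal one. Intervals are 95% from the moderated fit.

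The members, gene lists and tests were chosen with earlier results of these data known. Named were all members, the entries among them, 5 ORFs on each side, listed partner genes, called pathway genes and the 5 ORFs most alike. Alternatives covered centring, variance moderation, restored cells, repeated families, the path of the estimate and the members summarised.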

Additional observations from a re-analysis of the deposited data

How the results depend on the processing

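The members were chosen on these same samples, so their calls under other settings are a description and lend no support. ZNF1, DAK2 and AGP3 were called for the hybrid over Sc1 and for Sc1 over Sc2 in the main analysis and under all 7 alternatives of centring, moderation and ORF set. For the hybrid over Sc1, 5 members were called, 3 with 4 prior degrees of freedom (without AQY3, adjusted p = 0.059, and DDI2, adjusted p = 0.072, by limma) and 7 with 1 pooled SD for all ORFs, which added SNZ3 and SNO3. For Sc1 over Sc2, 6 were called, 5 without centring, with centring on the mode or with 4 prior degrees of freedom, each losing SNZ3 (limma adjusted p = 0.080, 0.061 and 0.11), and 7 with 1 pooled SD. For the hybrid over Sc2, 0 were called under any of them. No called estimate changed sign. Over the same settings the calls among all ORFs ran from 15 to 126 (41 as reported), from 15 to 148 (56) and from 61 to 210 (121) for hybrid over Sc1, hybrid over Sc2 and Sc1 over Sc2, lowest without restored cells and highest with 1 pooled SD. The median of the members was −0.50 for the hybrid over Sc1, −0.62 without THI5, SNZ3, SNO3 and DDI2, −0.73 with values read as natural logarithms, and −0.73 for ZNF1 to AGP3 alone. For Sc1 over Sc2 it was 0.48, 0.40 by the indirect path only, 0.77 without those 4 members, 0.40 with YFL056C and YFL057C, 0.70 as natural logarithms and 0.86 for ZNF1 to AGP3. The natural logarithm and the median over ZNF1 to AGP3 were added after the data were seen. No paired analysis was possible because each pair of strains has 1 sample and the labels give no replicate numbers.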
